A study of Mus musculus with 16 samples.

Results

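The comparison concerned CD11b+ cells that had entered a tumour within a known window of time. In Kaede mice every cell carries a fluorescent protein that violet light turns from green to red. A subcutaneous tumour was illuminated, and the Kaede-green cells found in it later were those that had arrived since. The members were the 8 Kaede-green libraries of a series of 16, taken by their labels, 4 from tumours collected 24h and 4 from tumours collected 72h after photoconversion. The other 8 libraries, of Kaede-red cells that had been in the tumour when it was lit, entered the same fit, and so also set its filter, scaling and spread, and gave the change to set beside that of the Kaede-green cells. From the 8 Kaede-green libraries alone, 5476 genes were tested. All groups shared adult female C57BL/6 Kaede hosts, the MC38-Ova line (a mouse colon adenocarcinoma line expressing ovalbumin), the control treatment, 1 batch label and a sort of viable cells that were positive for CD45, CD11b and Kaede and negative for TER119 and NK1.1. The submitters described the cells as macrophages, but the sort would also keep monocytes, neutrophils and some dendritic cells. Light was given at a single age of the tumour, so the tumours at 72h were also 48 h older than those at 24h, and entry window and tumour age cannot be told apart. Each Kaede-green library came from a separate mouse, according to the study. Kaede-green cells at 72h could have been in the tumour for any time up to 72h, those at 24h for up to 24h.

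Classical monocytes enter tissue from the blood with high Ly6C and CCR2. In tumours many of them then become macrophages, lose the monocyte programme, and gain phagocytic receptors, complement C1q and, in part, MHC class II. Immediate early genes, such as those of the Fos, Jun and Egr factors, give short-lived mRNAs that appear within minutes of stimulation or stress, tissue dissociation included. NF-kB drives a slower wave of cytokines and chemokines in the same cells.

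The libraries were shallow once ribosomal RNA was set aside. Total counts were 4590085 to 10823666 at 24h and 3650937 to 8136470 at 72h, of which the 45S ribosomal RNA gene Rn45s took a mean of 90.62% and 86.54% (difference -4.08 percentage points, two-sided exact permutation test, p = 0.2571, n = 4 against 4, where 0.0286 is the smallest p possible). The 468092 to 912689 counts left at 24h and the 649407 to 780523 counts left at 72h gave a tested gene a median of 12.75 counts per library. CD11b (Itgam) and CD45 (Ptprc), which the sort selected for, were detected in all 8 libraries with 151 to 283 and 184 to 366 counts. Neutrophil markers summed to 9.81 to 13.4 CPM (counts scaled to a common library size) at 24h and 10.4 to 12.7 CPM at 72h, with Retnlg, Camp, Ltf and Ngp at 0 in all 8 libraries, and markers of tumour epithelial cells to 0 to 2.86 CPM and 0 to 1.04 CPM. In Kaede-green 72h replicate 3, Hprt took 6.985% of the counts outside Rn45s. In that library 26 further genes, many of them known from neurons, were at least 10 times above every other Kaede-green library. Results that rest on 72h replicate 3 are given with and without it. Kaede-green 24h replicate 4 stood apart in other ways. Of the 8 libraries it had the highest Rn45s share (93.4%) and the fewest genes detected (9709) and counts outside Rn45s (468092). On the first principal component of 500 genes (33.81% of the variance) it lay at 56.14 and the others between -12.18 and -3.563. Correlations between libraries had a median of 0.796 within 24h, 0.845 within 72h and 0.823 between the times.

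For the Kaede-green cells, the quasi-likelihood test of edgeR separated no gene between the 2 times after Benjamini-Hochberg adjustment. Of 9642 genes tested, 0 (0%) had an adjusted p under 0.05, the smallest adjusted p was 0.151, and 835 genes (8.66%) had an unadjusted p under 0.05. Of these 835, 491 (5.09% of all tested) were higher and 344 (3.57%) lower at 72h. The 4 libraries at 72h did not overlap the 4 at 24h for 288 genes (2.99%), 183 higher (1.9%) and 105 lower (1.09%). With labels dealt at random, 4 against 4 libraries separate fully with a probability of 0.0286, which is near that share. A lack of overlap in a single gene is therefore given as a description. DESeq2's Wald test on the same counts called 13 of 5265 genes (0.247%), 3 of them up and 10 down. The Kaede-red libraries were deeper, with 758192 to 5472477 counts outside Rn45s against 468092 to 912689 in the Kaede-green ones. In them the same contrast of the times passed for 836 genes (8.67%), 473 higher (4.91%) and 363 lower (3.76%). The change differed between the colours for 74 genes (0.767%). With this difference in depth, the numbers of genes passed do not compare the size of the change between the colours. A gene is therefore said to have risen or fallen only where one of these tests passed it, and for the rest the levels themselves are given.

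All levels and fold changes are relative to the typical gene of the same library, since CPM were scaled by the trimmed mean of M values. Scaling by library size alone moved the median log2 fold change of all tested genes from 0.03 to 0.74 and turned the sign of 32 of the 80 genes named by rule, Cebpb, Plac8, Vcan, Ly6c2, Btg2, Zfp36 and Il1b among them. Relative to that shift, the medians of 22 of 22 gene lists kept their sign, for example monocyte identity genes at -0.47 with the main scaling and -0.44 with library size alone, and small nucleolar RNAs at 0.64 and 0.90. Taking out the median of all genes removes a shift that all genes share. The kept signs therefore follow largely by construction and do not test the choice of scaling.

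How small a change the counts could show depended on the gene. Among the 655 tested genes with a mean of at least 100 counts per Kaede-green library, the median standard error of the log2 fold change was 0.21, and for 90.38% of them the 95% interval lay within 1 log2 unit of no change. For the 4029 genes with under 10 counts, 41.79% of those tested, the median standard error was 0.67 and the interval lay within that range for 1.24%. A 2-fold difference could therefore be bounded for most well counted genes and for almost none of the poorly counted ones. Of the 171 genes with a fitted change beyond 2 log2 units, 170 had under 10 counts, and the remaining one was Hprt. Of all tested genes, 26 were at 0 in all 4 libraries at 24h and 6 at 0 in all 4 at 72h. The dendritic cell chemokine receptor Ccr7 was one of these, with 0 counts in each library at 24h and 0, 1, 4 and 2 counts at 72h, and with so few reads its fitted fold change depends on the prior count.

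**Figure D1:**
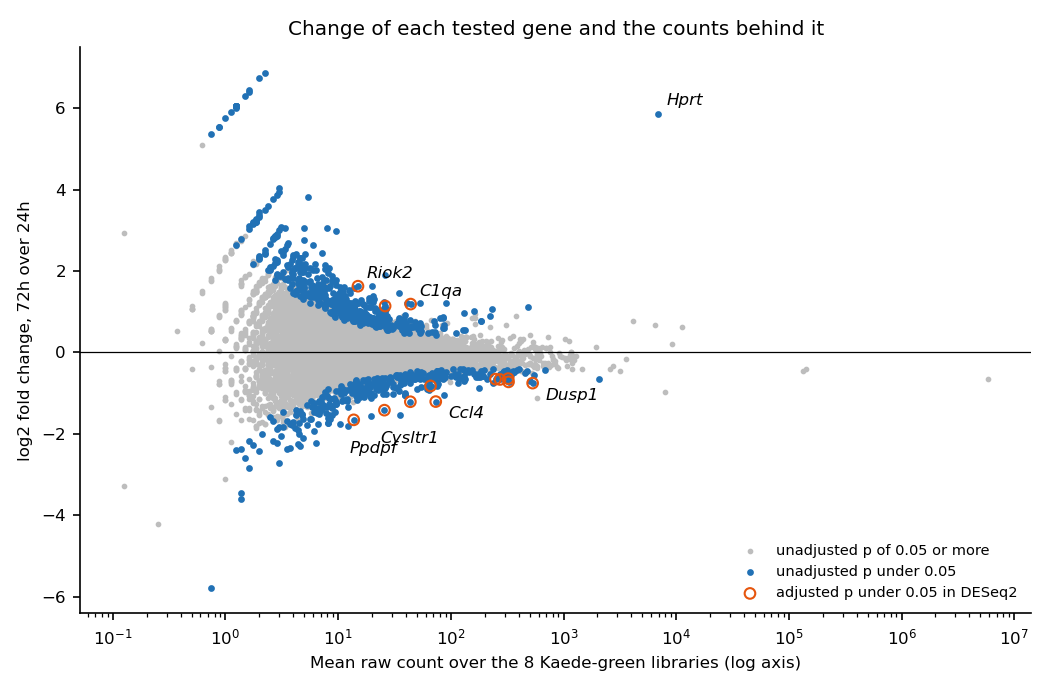
Log2 fold change (72h over 24h) of each tested gene against its mean raw count over the 8 Kaede-green libraries (log axis). Blue points have an unadjusted edgeR p under 0.05 and orange rings mark the 13 genes that DESeq2 called. The spread of the points narrows with counts, and Hprt stands alone at a mean of 6913 counts and a log2 fold change of 5.87.

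Transcripts of circulating monocytes were mostly at lower levels in the 72h cells. Of 18 monocyte identity genes, 16 had a log2 fold change below 0 (47.1% of all tested genes did), 5 had an unadjusted p under 0.05 with a lower level and 0 with a higher one, and the median was -0.43 against 0.03 over all tested genes. None passed the adjusted test. In bulk samples a lower level can mean fewer cells that make the RNA or less RNA per cell, and the libraries cannot tell these apart.

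Cebpb, a transcription factor of monocytes and of emergency myelopoiesis, was measured at 65.7, 95.6, 75.03 and 70.6 CPM in replicates 1 to 4 at 24h and at 53.9, 47.8, 49.8 and 53.7 CPM at 72h. The groups did not overlap, and the 72h libraries lay much closer together than the 24h ones. Its log2 fold change was -0.58 (SE 0.20), a 1.498-fold lower level, with an adjusted p of 0.403. Plac8, a gene abundant in newly made monocytes, stood at 984, 939, 844 and 619.9 CPM at 24h and 374, 550.4, 703 and 538 CPM at 72h (log2 fold change -0.64, SE 0.24, adjusted p = 0.4398), and only 24h replicate 4 fell within the range of the 72h libraries. In Vcan, which encodes the matrix proteoglycan versican made by classical monocytes, the values were 65.7, 33.9, 57.2 and 45.3 CPM and 34.6, 39.6, 35.5 and 21 CPM (log2 fold change -0.63, SE 0.26), and 24h replicate 2 lay among the 72h libraries. Ly6c2, the gene of the surface marker Ly6C, read 228, 291, 165 and 134 CPM at 24h and 78.7, 103, 178 and 211 CPM at 72h. The groups overlapped, with 2 libraries at 72h low and 2 within the 24h range, and the log2 fold change was -0.52 (SE 0.26), 95% interval -1.04 to 0.01. Ccr2, the receptor that brings monocytes out of the marrow, had a log2 fold change of -0.26 (SE 0.19) and groups that overlapped. Chil3 (-0.76), Ifitm3 (-0.50) and Lyz2 (-0.47) had lower fitted levels as well, while Itgal (0.07) and Gsr (0.00) did not.

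1 library of the 24h group stood lower than the rest. The summed level of the 18 genes was 4396 to 4813 CPM in 24h replicates 1 to 3 but 2775 CPM in replicate 4, against 2792 to 3164 CPM at 72h. Without 24h replicate 4, all 18 genes had a log2 fold change below 0, 12 had an unadjusted p under 0.05 and the median was -0.61. Over all 9845 genes tested in that fit, 550 were lower and 517 higher at that threshold. With every library they were 344 and 491 of 9642. This general shift lies behind the counts of each list below that are given without 24h replicate 4. Without 72h replicate 3, 16 of the 18 genes were below 0, 7 had an unadjusted p under 0.05 and the median was -0.48.

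Macrophage genes showed no common direction. Of 20 tested macrophage identity genes 11 had a log2 fold change above 0 (52.9% of all tested genes did), 3 had an unadjusted p under 0.05 with a higher level and 1 with a lower one, and the median was 0.21, or 0.05 without 72h replicate 3 and -0.05 without 72h replicate 4. The strongest difference was in C1qa, which encodes a chain of C1q, the recognition molecule of the classical complement pathway made by tissue macrophages. C1qa stood at 11.1, 7.36, 6.89 and 8.16 CPM at 24h and 13.8, 15.8, 22.6 and 21.8 CPM at 72h, from 20, 18, 27 and 20 and 38, 52, 93 and 84 raw counts. Every library at 72h lay above every library at 24h, and the log2 fold change was 1.19 (SE 0.25), a 2.28-fold higher level (edgeR unadjusted p = 4.71e-05, adjusted p = 0.151). DESeq2 called C1qa as risen, with a log2 fold change of 1.17 (SE 0.26) and an adjusted p of 0.00789. Without 72h replicate 3 the edgeR value was 1.06.

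The 3 chains of C1q lie within 18675 bases of each other on the minus strand of chromosome 4 in mm10, C1qa at chr4:136895917-136898803, C1qc at chr4:136889804-136893065 and C1qb at chr4:136880129-136886187. The other two did not show the step of C1qa. C1qb read 17.3, 22.5, 7.66 and 12.2 CPM at 24h and 8.38, 13.7, 20.9 and 29.3 CPM at 72h (log2 fold change 0.34, SE 0.30), and C1qc 8.36, 7.76, 8.93 and 8.16 CPM and 5.10, 6.09, 11.2 and 15.8 CPM (0.23, SE 0.29). In both, the 72h libraries were spread wider than the 24h ones, with replicates 1 and 2 low and replicates 3 and 4 high. Whether the chains differed from one another was not tested.

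Pparg, a nuclear receptor of lipid handling in macrophages, had 3, 5, 2 and 1 raw counts at 24h and 10, 12, 8 and 12 at 72h, which is 1.67, 2.04, 0.5104 and 0.408 CPM and 3.64, 3.65, 1.95 and 3.11 CPM. Its log2 fold change was the highest of the list at 1.51 (SE 0.55), with a 95% interval of 0.38 to 2.64 and an adjusted p of 0.436. The CPM of 72h replicate 3 fell just below that of 24h replicate 2, so the groups overlapped. Ms4a7, a membrane protein gene of macrophages, was at 22.8, 19.6, 22.2 and 20.4 CPM at 24h and 17.5, 36.9, 37.9 and 36.8 CPM at 72h (log2 fold change 0.61, SE 0.23), where 3 libraries at 72h lay well above the 24h range and replicate 1 below it. Adgre1, which encodes F4/80, had groups that did not overlap, 11.7, 15.9, 15.8 and 11.4 CPM and 16.4, 16.1, 16.3 and 21 CPM, but a small log2 fold change of 0.33 (SE 0.23) with an unadjusted p of 0.155. Mrc1, the mannose receptor CD206, went the other way with 24.5, 10.6, 18.4 and 24.5 CPM and 8.74, 16.4, 15.6 and 8.298 CPM (log2 fold change -0.65, SE 0.27, adjusted p = 0.489). Cx3cr1, the fractalkine receptor of patrolling monocytes and resident macrophages, had 5 to 15 raw counts per library. Its 95% interval of -1.42 to 0.60 left a 2-fold lower level possible, while a 2-fold higher one lay outside it.

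**Figure D2:**
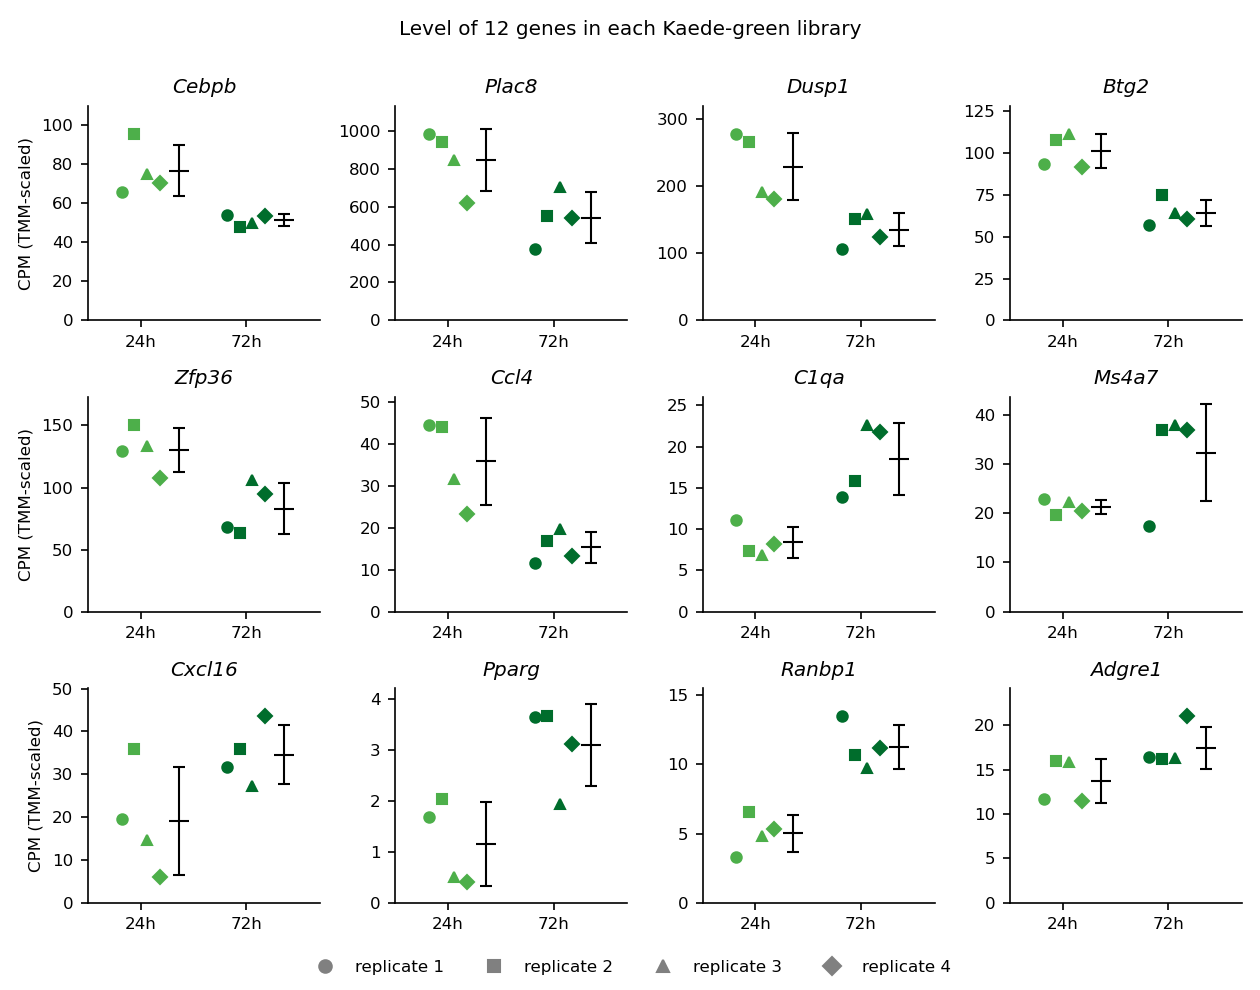
CPM (scaled by the trimmed mean of M values) of 12 genes in the 8 Kaede-green libraries, by time after photoconversion. Symbols are replicates and bars the mean ± SD (n = 4). Cebpb, Dusp1, Btg2, Zfp36 and Ccl4 are lower and C1qa, Ranbp1 and Adgre1 higher in all 4 libraries at 72h than in any at 24h. In Plac8, Ms4a7, Cxcl16 and Pparg the groups overlap.

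Immediate early genes had the lowest median of the 22 lists, although relative to all genes with library size alone it was -0.48 and that of chemokines -0.51. Of 19 tested, 16 had a log2 fold change below 0, 8 had an unadjusted p under 0.05 with a lower level and 1, Myc (0.98), with a higher one, and the median was -0.48. 3 of them, Dusp1, Btg2 and Zfp36, fell by DESeq2's test. Dusp1, a phosphatase that switches off MAP kinases, read 277, 265, 191 and 181 CPM at 24h and 107, 150.5, 159 and 124 CPM at 72h, from 293 to 747 raw counts, so that the groups did not overlap (edgeR log2 fold change -0.76, SE 0.20, adjusted p = 0.323, DESeq2 adjusted p = 0.01585). For Btg2, an antiproliferative gene that responds quickly to stress, the values were 93.6, 108, 112 and 91.8 CPM and 56.8, 75.2, 64.2 and 60.7 CPM (log2 fold change -0.66, SE 0.18, edgeR adjusted p = 0.342, DESeq2 adjusted p = 0.00209). Zfp36 encodes tristetraprolin, which binds AU-rich cytokine mRNAs and speeds their decay, and stood at 129, 150.4, 134 and 107 CPM and 68.1, 63.7, 106 and 94.9 CPM (log2 fold change -0.64, SE 0.19, DESeq2 adjusted p = 0.0303). In these 3 genes the lowest library at 24h was above the highest at 72h, though for Zfp36 by less than 2 CPM.

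Nr4a1, an orphan nuclear receptor of the same early response, had 53.5, 53.1, 42.4 and 31.01 CPM at 24h and 28.4, 27.7, 33.5 and 28.8 CPM at 72h (log2 fold change -0.60, SE 0.20), with 24h replicate 4 inside the 72h range. Ier3 (-0.74), Jund (-0.66), Junb (-0.53) and Atf3 (-0.48) were the other members with an unadjusted p under 0.05. The founding members of the group were among those that differed least. Fos had 264, 329.8, 292 and 243 CPM and 311, 289, 207 and 187 CPM, a log2 fold change of -0.18 (SE 0.20), and Jun 51.8, 60.5, 33.7 and 44.5 CPM and 60.8, 47.5, 43.3 and 43.8 CPM, 0.04 (SE 0.21). Beside these, the summed level of the list was 1026 to 1531 CPM at 24h and 887.6 to 998.9 CPM at 72h, with no overlap, and without 24h replicate 4 or 72h replicate 3 the median was -0.51 or -0.43.

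The bases before the start of Dusp1, Btg2 and Zfp36 are shown because these were the members that passed one of the tests. They were read from RefSeq promoters of GRCm38.p6, each as the 250 bases upstream of the annotated start, 5′ to 3′ on the gene's strand. Capitals mark the cyclic AMP response element TGACGTCA, searched on both strands, or the CArG box, the site of serum response factor.
Dusp1, chr17:26508473-26508722, minus strand: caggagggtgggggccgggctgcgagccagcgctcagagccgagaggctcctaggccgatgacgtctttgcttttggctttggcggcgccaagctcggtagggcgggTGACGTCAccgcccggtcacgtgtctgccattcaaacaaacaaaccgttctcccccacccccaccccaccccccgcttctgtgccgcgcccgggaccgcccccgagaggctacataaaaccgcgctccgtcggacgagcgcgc
Btg2, chr1:134079156-134079405, minus strand: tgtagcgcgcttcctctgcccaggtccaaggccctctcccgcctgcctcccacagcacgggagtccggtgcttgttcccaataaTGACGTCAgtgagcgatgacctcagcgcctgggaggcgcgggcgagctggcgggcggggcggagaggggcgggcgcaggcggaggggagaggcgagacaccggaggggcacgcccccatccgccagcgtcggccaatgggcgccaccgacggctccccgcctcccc
Zfp36, chr7:28379229-28379478, minus strand: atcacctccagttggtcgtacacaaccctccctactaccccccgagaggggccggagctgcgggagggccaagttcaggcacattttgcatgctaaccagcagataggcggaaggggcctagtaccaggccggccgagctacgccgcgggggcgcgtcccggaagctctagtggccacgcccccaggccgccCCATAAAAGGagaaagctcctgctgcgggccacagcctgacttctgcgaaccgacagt
Over windows of 300 bases, which add 50 bases after the start, TGACGTCA was found in 2 of the 15 tested immediate early genes with a promoter in the table, Dusp1 and Btg2, and in 2.031% of all 27025 genes. A CArG box was found in Egr2 and Zfp36 of the 15 and in 1.806% of all genes, the AP-1 letters TGAGTCA in 0 of the 15 and in 5.946%, and TATAAA in Fos and Junb and in 15.67%. These are matches of letters, counted as a description.

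Inflammatory cytokines and NF-kB targets were lower at 72h in 17 of 23 tested genes, 5 of them and 0 in the other direction with an unadjusted p under 0.05, and the median was -0.33. Ccl4, a chemokine that draws monocytes and T cells, was the one member called, by DESeq2 (log2 fold change -1.23, SE 0.30, adjusted p = 0.0207). It read 44.6, 44.1, 31.6 and 23.3 CPM at 24h and 11.7, 16.8, 19.7 and 13.2 CPM at 72h, with groups that did not overlap, and the edgeR log2 fold change of -1.21 (SE 0.27) was a 2.31-fold lower level. Cxcl2, a neutrophil attractant, was at 27.9, 18.4, 27.1 and 20.4 CPM and 9.84, 16.1, 19.2 and 6.48 CPM (log2 fold change -0.85, SE 0.32), with 72h replicate 3 inside the 24h range. Il1b, the gene of the pyrogenic cytokine interleukin 1β, stood at 259.6, 239.9, 305 and 224 CPM and 163, 236, 191 and 171 CPM (log2 fold change -0.44, SE 0.19), and only 72h replicate 2 reached the 24h range. For Il6 the raw counts were 13, 27, 61 and 18 at 24h and 24, 37, 36 and 20 at 72h, and the 95% interval of the log2 fold change, -1.20 to 0.55, left a 2-fold lower level possible. Tnf had 9 to 21 counts and a log2 fold change of -0.09 (SE 0.30). Without 24h replicate 4, 20 of the 23 genes were below 0, 10 with an unadjusted p under 0.05, and without 24h replicate 2 the median was -0.13.

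Regulatory cytokines and receptors were split. The anti-inflammatory cytokine Il10 had 4, 4, 2 and 4 raw counts at 24h and 0, 1, 7 and 0 at 72h, too few for a comparison, and its fitted value of -1.32 became -3.67 without 72h replicate 3, the library with the most reads of it. Tgfb1, which encodes transforming growth factor β1, had 20.6, 45.8, 28.1 and 20.8 CPM and 17.9, 20.4, 21.1 and 34.8 CPM and a log2 fold change of -0.29 (SE 0.26). Its type I receptor Tgfbr1 was at 8.91, 15.5, 13.01 and 6.53 CPM and 18.6, 19.2, 19.9 and 11.9 CPM (0.64, SE 0.25), with 72h replicate 4 within the 24h range. Arginase 1 (Arg1, -0.62) and the interleukin 1 receptor antagonist (Il1rn, -0.40) had lower fitted levels with an unadjusted p under 0.05.

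Chemokines were mostly at lower levels. Of the 16 tested chemokines with any read in the Kaede-green libraries, 12 had a log2 fold change below 0, 5 of them (Ccl2, Ccl4, Ccl6, Cxcl2 and Cxcl10) with an unadjusted p under 0.05, and the median was -0.43. Without 24h replicate 4 the number was 9. Ccl6, a chemokine made constitutively by myeloid cells, read 252, 230.1, 229 and 111 CPM at 24h and 102, 136, 166 and 102 CPM at 72h (log2 fold change -0.70, SE 0.25). In the 24h group replicate 4 lay far below the other 3 libraries. Cxcl10, the interferon-induced ligand of CXCR3, had 124, 134, 131 and 106 CPM and 51.4, 70.97, 129 and 98.3 CPM, and its log2 fold change of -0.49 (SE 0.22) was -0.76 without 72h replicate 3. The one chemokine with an unadjusted p under 0.05 and a higher level was Cxcl16, a membrane-bound ligand of CXCR6, at 19.5, 35.97, 14.6 and 6.12 CPM and 31.7, 35.9, 27.2 and 43.6 CPM (log2 fold change 0.88, SE 0.29, adjusted p = 0.403), where the 24h libraries were spread much wider than the 72h ones and 24h replicate 2 lay above 3 of them.

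Receptors for chemoattractants were also lower, in 10 of 11 tested genes, 3 with an unadjusted p under 0.05, or 5 without 24h replicate 4. Ccr7 was the one above 0. Cysltr1, the receptor for cysteinyl leukotrienes, had the smallest p of any gene tested. It was counted at 20, 31, 57 and 30 reads at 24h and 9, 9, 23 and 27 reads at 72h, which is 11.1, 12.7, 14.6 and 12.2 CPM and 3.28, 2.74, 5.59 and 7.001 CPM. The groups did not overlap, and the log2 fold change of -1.42 (SE 0.29) was a 2.68-fold lower level (edgeR unadjusted p = 2.89e-05, adjusted p = 0.151, DESeq2 adjusted p = 0.00295). Without 72h replicate 4, the library with the highest Cysltr1 level at 72h, the edgeR adjusted p was 0.0459. With any other single library left out Cysltr1 did not pass. Cysltr1 lies on chromosome X at chrX:106574346-106603679, where the annotation places 2 other genes within its span, Gm5127 and Gm24622, the latter on the same strand. Ccr1, a receptor of inflammatory CC chemokines, was at 172, 169, 146 and 111 CPM and 113, 106, 104 and 119.5 CPM (log2 fold change -0.44, SE 0.18), and Ccrl2 at a log2 fold change of -0.61.

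**Figure D3:**
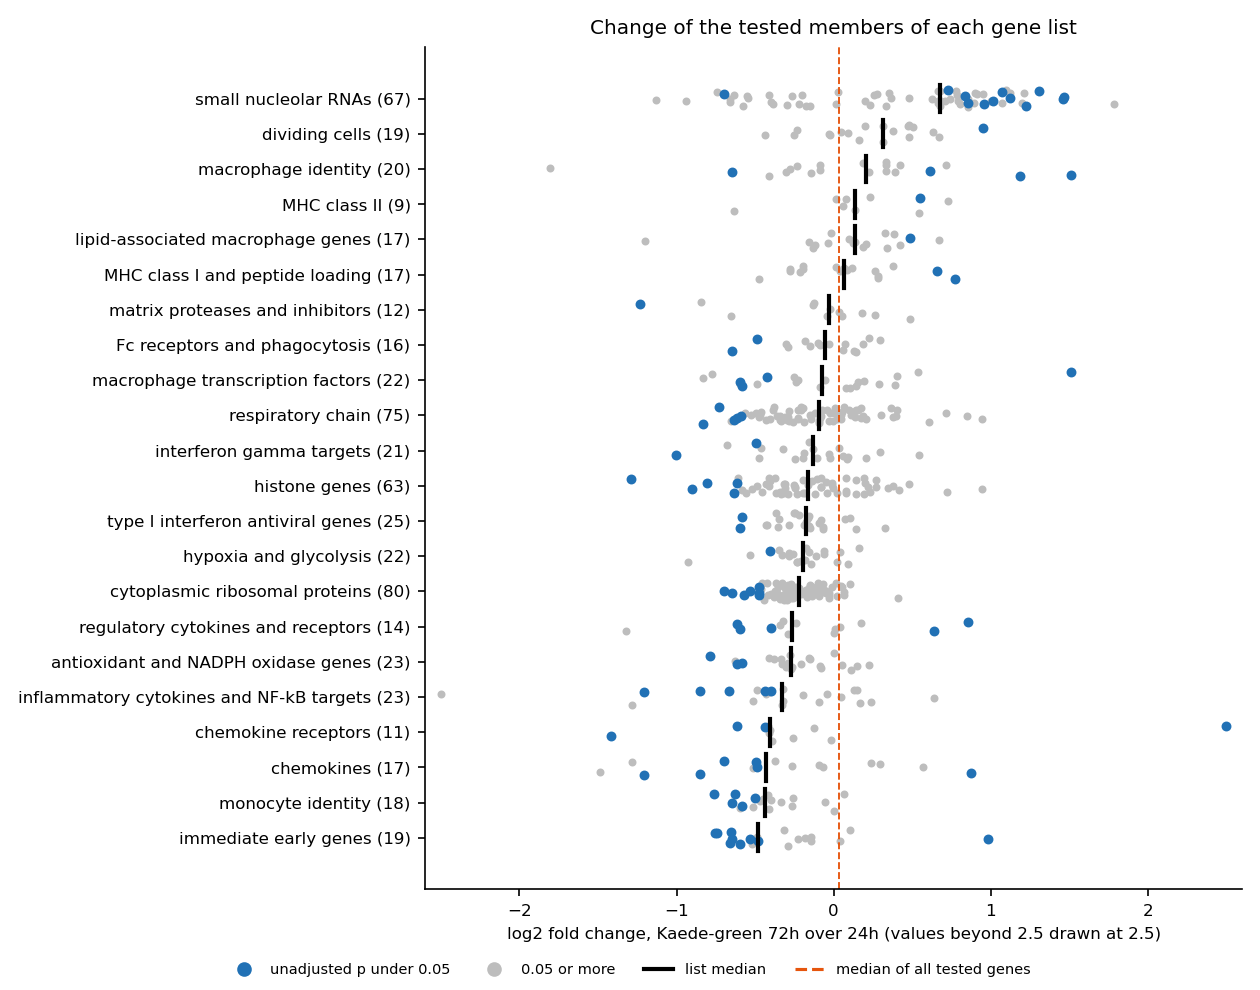
Log2 fold change (72h over 24h, Kaede-green) of the tested members of 22 gene lists, ordered by their medians (black bars), with the number of tested members in brackets. Blue points have an unadjusted edgeR p under 0.05, and the dashed line is the median of all tested genes, 0.03. Immediate early, monocyte identity and chemokine genes lie lowest and small nucleolar RNAs highest, the latter at a median of 0.67 that was -0.12 without 72h replicate 4. Values beyond 2.5 log2 units are drawn at 2.5. All are on the scale set by the trimmed mean of M values, and with library size alone the median of all genes is 0.74.

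Interferon-induced genes differed by small amounts. Among 25 type I interferon antiviral genes 21 had a log2 fold change below 0, but by little, with a median of -0.18 and 2 at an unadjusted p under 0.05, and among 21 interferon γ targets 14 were below 0 with a median of -0.13 and 2 at that threshold. Without 24h replicate 4, 4 genes of each list had an unadjusted p under 0.05. Cmpk2, an antiviral mitochondrial kinase gene, had 74.1, 91.1, 58.7 and 70.2 CPM at 24h and 47.4, 47.8, 45.9 and 52.9 CPM at 72h with no overlap (log2 fold change -0.60, SE 0.19, adjusted p = 0.403). Nos2, the inducible nitric oxide synthase, was counted at 17, 25, 23 and 30 and 19, 18, 10 and 16 reads (log2 fold change -1.01, SE 0.38). Cxcl9, the other CXCR3 ligand of the list, had a log2 fold change of 0.30 (SE 0.28) and Irf1, the transcription factor at the head of the interferon γ response, one of 0.03. The guanylate-binding proteins Gbp2 to Gbp5 ranged from -0.11 to 0.21. 9930111J21Rik1 and 9930111J21Rik2, a pair of immunity-related GTPase genes on chromosome 11, were called as fallen by DESeq2 with log2 fold changes of -0.69 and -0.75. They are close relatives whose reads may be shared, which was not measured here, so that the split between them is uncertain, and other genes overlap both.

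In antigen presentation genes the libraries of both times overlapped for most members. Of 9 tested MHC class II genes 8 had a log2 fold change above 0, with a median of 0.14 and only H2-Eb1 (0.55, SE 0.27) at an unadjusted p under 0.05. The median was 0.03 without 24h replicate 4, with 6 of 9 above 0, and 0 genes were higher and 1 lower at that threshold. Without 72h replicate 4 the median was -0.0004. The class II chain H2-Aa read 95.3, 115, 43.6 and 29.4 CPM at 24h and 49.9, 58.2, 54.2 and 122 CPM at 72h, and the invariant chain Cd74 139, 243, 109 and 79.98 CPM and 120.2, 100.2, 107 and 267 CPM. Both were spread over more than 2-fold within each group, with 72h replicate 4 and 24h replicate 2 high in both genes, and their log2 fold changes were 0.02 (SE 0.31) and 0.06 (SE 0.31). Among 17 class I and peptide loading genes the median was 0.06, and -0.06 without 24h replicate 3. H2-Q7, a non-classical class I gene whose reads may be shared with its close relatives of the Qa region, had 68.5, 29.4, 47.5 and 31.01 CPM and 75.4, 105, 52.99 and 66.9 CPM (0.78, SE 0.25), and the peptide transporter gene Tap2 12.3, 18.8, 11.5 and 6.12 CPM and 20.8, 20.1, 15.8 and 20.2 CPM (0.66, SE 0.26).

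Fc receptor and phagocytosis genes had a median of -0.06 (16 tested, 2 with an unadjusted p under 0.05 and lower) and lipid-associated macrophage genes one of 0.14 (17 tested, 1 higher). The latter was 0.02 without 24h replicate 4, and without 72h replicate 3, 0 genes were higher at that threshold. Fcer1g, the signalling chain of Fc receptors, was at 144, 198, 117 and 109 CPM at 24h and 84.2, 85.6, 106 and 128 CPM at 72h (log2 fold change -0.49, SE 0.20). Cd63, a tetraspanin of late endosomes, was at 13.4, 13.5, 8.93 and 9.79 CPM and 11.3, 14.6, 16.5 and 19.97 CPM (0.49, SE 0.24), while Trem2 (0.19), Spp1 (0.14) and Lpl (0.21) had small fitted values. Among 22 macrophage transcription factors the median was -0.07, and beside Cebpb, Nr4a1 and Pparg only Klf6 (-0.43) had an unadjusted p under 0.05. Matrix proteases and their inhibitors had a median of -0.03 over 12 tested genes, and Mmp8, a neutrophil collagenase counted at 1 to 16 reads per library, was the one with an unadjusted p under 0.05 (-1.23, SE 0.53).

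Genes of translation, oxidant handling and energy metabolism had small median changes, mostly in 1 direction within a class. Cytoplasmic ribosomal protein genes were below 0 in 72 of 80, with a median of -0.22 and 7 with an unadjusted p under 0.05. Rps20 had 118, 89.5, 85.7 and 50.2 CPM at 24h and 35.7, 54.8, 59.8 and 67.7 CPM at 72h (-0.64, SE 0.22), and Rpl10, the one member whose groups did not overlap, 147, 129.6, 162 and 112 CPM and 80.5, 106, 108 and 103 CPM (-0.47, SE 0.19). Without 24h replicate 4, 79 of the 80 were below 0, 27 with an unadjusted p under 0.05, where 550 of all 9845 tested genes were lower at that threshold. Without 72h replicate 3, 11 had an unadjusted p under 0.05, and without 24h replicate 1 the number below 0 was 62. Antioxidant and NADPH oxidase genes were below 0 in 18 of 23 with a median of -0.27, 3 of them with an unadjusted p under 0.05, or 8 without 24h replicate 4. Among them were the peroxiredoxin gene Prdx1 with 100.3, 84.2, 59.97 and 43.7 CPM and 37.9, 47.5, 56.1 and 45.4 CPM (-0.61, SE 0.23), and Hmox1, which encodes the haem-degrading enzyme heme oxygenase 1, with 36.2, 42.1, 40.3 and 10.6 CPM and 17.9, 11.3, 26.5 and 18.9 CPM (-0.79, SE 0.31). In Hmox1 the 24h libraries fell into 3 high ones and replicate 4, which was below all 72h libraries. Hypoxia and glycolysis genes were below 0 in 18 of 22 (median -0.19, 1 with an unadjusted p under 0.05, Pgk1 at -0.41), and respiratory chain genes in 46 of 75 (median -0.10, 5 lower). Without 24h replicate 4 the numbers with an unadjusted p under 0.05 were 3 and 10.

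Small nucleolar RNAs, which guide the modification of ribosomal RNA from within introns of host genes, had the highest median of the 22 lists, but it rested on 72h replicate 4. Of 67 tested, 48 had a log2 fold change above 0, 11 with an unadjusted p under 0.05 against 1 in the other direction, and the median was 0.67, which became -0.12 without 72h replicate 4. Snora7a, in an intron of the ribosomal protein gene Rpl32, read 28.4, 26.2, 32.9 and 42.9 CPM at 24h and 61.2, 49.6, 44.97 and 108 CPM at 72h with no overlap (1.02, SE 0.29). The reads of these RNAs and of their hosts lie on the same strand and cannot always be told apart. Snora64, within Rps2, was at 6.13, 5.31, 5.36 and 5.71 CPM and 14.2, 7.92, 7.54 and 31.6 CPM (1.46, SE 0.39). Snora62, within Rpsa, had 17.3, 14.3, 16.6 and 16.3 CPM and 17.5, 12.5, 22.6 and 96.7 CPM (1.23, SE 0.42). In all 3, the highest value was that of 72h replicate 4, the library with the lowest share of Rn45s among the 8 (79.05%). Without it the log2 fold changes were 0.67 for Snora7a, 0.81 for Snora64 and 0.13 for Snora62. The summed level of the list was 823.5 to 1198 CPM at 24h and 692.3 to 2920 CPM at 72h, so the groups overlapped. With the Rn45s share as a covariate the median was 0.41, and without 72h replicate 3, 22 genes had an unadjusted p under 0.05 and a higher level. Histone genes had a median of -0.16 over 63 tested, 5 of them with an unadjusted p under 0.05 and lower. The median was 0.03 without 24h replicate 1, and without 24h replicate 4 the number was 12.

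Genes of dividing cells had a median of 0.32, with 14 of 19 above 0, and the median was 0.10 without 72h replicate 2. Rrm2, a ribonucleotide reductase subunit needed for DNA synthesis, was counted at 8, 11, 13 and 7 reads at 24h and 16, 20, 28 and 38 reads at 72h (0.95, SE 0.41), with groups that did not overlap. Mki67, the proliferation marker Ki-67, was level at 9.47, 12.7, 19.6 and 18.8 CPM and 14.2, 18.6, 13.4 and 14.8 CPM (-0.02, SE 0.30, 95% interval -0.64 to 0.59).

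Outside the lists, the genes with non-overlapping groups and the smallest p came from varied functions. Ranbp1, a partner of the nuclear transport GTPase Ran, rose by DESeq2's test (adjusted p = 0.01785) from 3.34, 6.54, 4.85 and 5.305 CPM to 13.5, 10.7, 9.72 and 11.2 CPM, an edgeR log2 fold change of 1.14 (SE 0.27). Riok2, a kinase of small ribosomal subunit maturation, rose by the same test (adjusted p = 0.0439) on 2, 9, 6 and 6 reads at 24h and 12, 19, 36 and 30 reads at 72h (1.63, SE 0.39). Higher levels that neither edgeR's main test nor DESeq2 called were those of the chaperonin subunit Cct2 (0.82), the endoplasmic reticulum protein Nomo1 (1.20), the ubiquitin ligase Mib1 (1.03), the helicase Ddx24 (0.91), the lectin-like receptor Cd72 (0.79) and the seryl-tRNA synthetase Sars (0.90), each with a standard error between 0.23 and 0.35. With no filter on low counts edgeR called Nomo1 (log2 fold change 1.22, adjusted p = 0.0266).

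On the lower side, DESeq2 called Mpc1, Nfil3 and Ppdpf. Mpc1, which carries pyruvate into mitochondria, was counted at 26, 48, 102 and 49 reads at 24h and 23, 16, 53 and 33 reads at 72h, with no overlap in CPM (-1.21, SE 0.28, DESeq2 adjusted p = 0.0195). Nfil3, a transcription factor induced by cytokines, had 21.7, 37.2, 31.4 and 22.4 CPM and 20.4, 14.6, 13.6 and 15.8 CPM (-0.83, SE 0.22, DESeq2 adjusted p = 0.01585). Ppdpf was counted at 17, 19, 20 and 20 and 4, 3, 20 and 7 reads (-1.66, SE 0.43), and without 72h replicate 3 its fitted value was -2.41. Wfdc17, a secreted protein of activated macrophages, was not called by either test, although its libraries kept close together within each group at 77.4, 71.9, 77.8 and 83.2 CPM and 36.1, 42.95, 49.4 and 41.8 CPM (-0.86, SE 0.25).

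Markers of other cells were low at both times beside 10 genes of CD11b+ cells, Itgam and Ptprc among them. Those 10 summed to 1063 to 2431 CPM at 24h and 1205 to 1675 CPM at 72h. The other cells included erythroid cells, fibroblasts and endothelial cells, which the gate on CD45, CD11b and TER119 would remove. Dendritic cell markers summed to 7.75 to 15.6 CPM at 24h and 15.8 to 17.5 CPM at 72h with no overlap, with Xcr1 and Siglech at 0 in all 8 libraries, and T and NK cell markers to 3.68 to 11.4 CPM and 2.74 to 8.82 CPM. Erythroid markers summed to 3.9 to 8.98 CPM at 24h and 0 to 2.07 CPM at 72h, also with no overlap, on a few reads per library. Fibroblast markers summed to 54.4 to 80.8 CPM and 57.0 to 73.4 CPM, and endothelial markers to 11.1 to 16.7 CPM and 10.7 to 20.4 CPM. B cell markers summed to at most 2.45 CPM, and those of mast cells, basophils and eosinophils to at most 0.729 CPM. The part of these cells in the differences between the times was not tested.

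The change with time was set beside that of Kaede-red cells, which had been in the tumour when it was lit. Of the 74 genes for which the changes differed between the colours (adjusted p under 0.05, interaction term), 7 were among the 80 genes named by rule. In Kaede-red cells alone 14 of the 80 passed. Over all tested genes the shares were 0.767% and 8.67%. Many of the 80 were picked by their p in the Kaede-green contrast, which is part of the interaction term, so the 7 are not a fair sample. Vcan had a log2 fold change of -0.63 (SE 0.26) among newly entered and 1.35 (SE 0.25) among Kaede-red cells, a difference of 1.98 (SE 0.36) with an adjusted p of 0.01298. Zfp36 differed in the same direction, -0.64 in green and 0.52 in red cells (difference 1.16, SE 0.27, adjusted p = 0.0445). The opposite pattern was seen in Ms4a7, with 0.61 in green and -1.06 in red cells (difference -1.68, SE 0.31, adjusted p = 0.0145), in Cd63 (0.49 and -0.79, adjusted p = 0.0483), in Snora7a (1.02 and -0.91, adjusted p = 0.0281) and in Riok2 (1.63 and -0.80, adjusted p = 0.0217). For the monocyte identity list as a whole, the median was -0.43 in green and 0.64 in red cells. 7 of its 18 genes rose in the deeper Kaede-red libraries and 0 fell, against 4.91% and 3.76% of all tested genes. The change differed between the colours for 4 of the 18, Vcan, Itgal and Hp among them, against 0.767% of all tested genes. For C1qa, Ccl4, Cysltr1, Ly6c2 and Cebpb the difference between the colours had adjusted p-values from 0.0615 to 0.172, and a p that misses the threshold does not show that they changed alike.

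**Figure D4:**
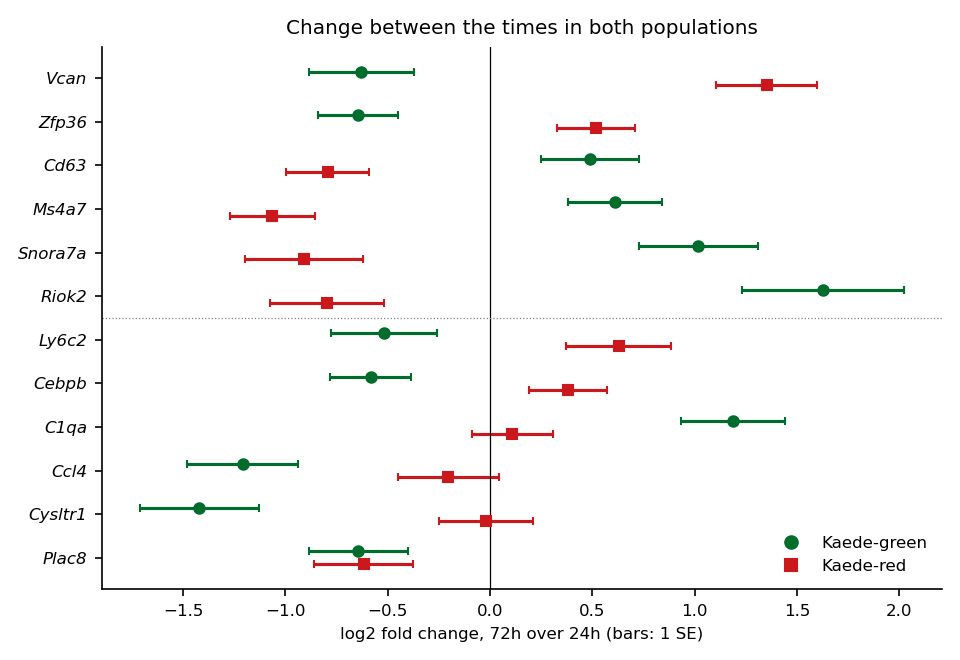
Log2 fold change from 24h to 72h with 1 SE in Kaede-green (circles) and Kaede-red (squares) cells, for 12 genes. Above the dotted line are the 6 genes besides Hprt named by rule for which the change differed between the colours (adjusted p under 0.05), with the 2 values on opposite sides of 0. Below it the difference did not pass.

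Hprt, the purine salvage enzyme often used as a reference gene, at chrX:52988137-53021659 on the plus strand, was counted at 254, 88, 124 and 58 reads at 24h and 61, 103, 54523 and 95 reads at 72h. The 72h replicate 3 value was 13250 CPM, 93.7 times the next highest Kaede-green library, and the other 7 libraries lay between 22.2 and 141.5 CPM. With all 8 libraries the log2 fold change was 5.87 (SE 1.22) with an adjusted p of 0.151, and without 72h replicate 3 it was -1.14, where 24h replicate 1 was the highest. That library also held 1461 reads of 26 other genes with an excess, 355.1 CPM in sum against 2.37 to 8.58 CPM in the other 15 libraries. They included the astrocyte glutamate transporter Slc1a2 with 154 reads, the long non-coding RNA Meg3 with 138, the neuronal kinesin Kif5a with 110, the calmodulin kinase Camk2a with 91 and the synaptic proteins Snap25 with 64 and Syt1 with 54. Snap25, Syt1, Cdr1, Gpm6a and Adcy1 had 0 reads in the other 7 Kaede-green libraries. Of the 27 genes 2, Hprt and Agap2, had passed the filter and were tested. The origin of these reads was not tested.

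**Figure D5:**
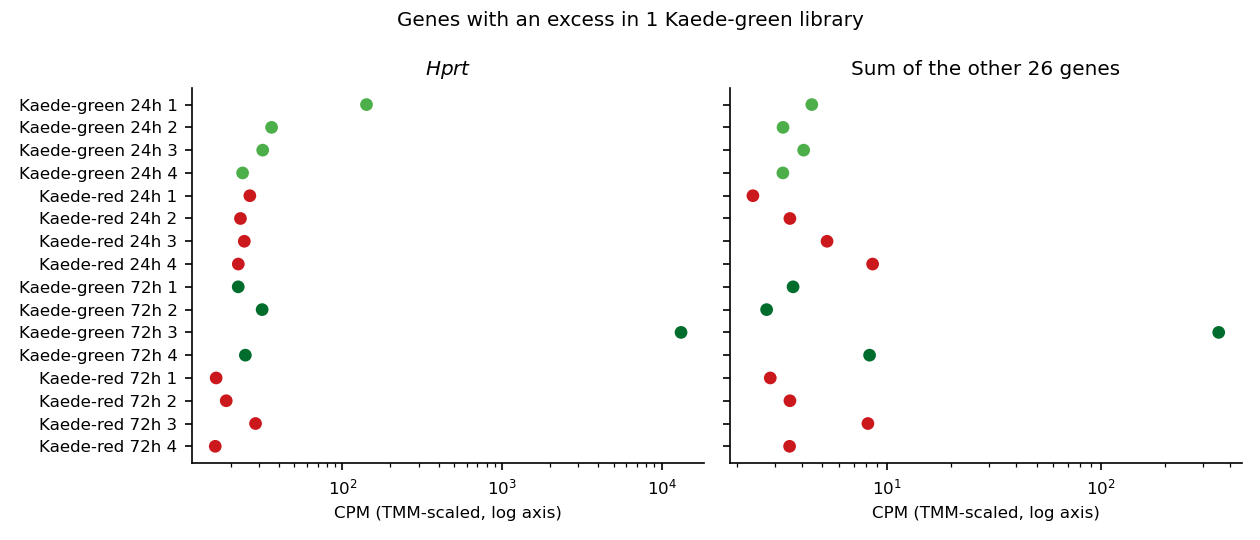
Hprt (left) and the sum of the 26 other genes with an excess in 1 Kaede-green library (right), in CPM on log axes, in each of the 16 libraries. Light green points are Kaede-green 24h, dark green Kaede-green 72h and red Kaede-red libraries. Kaede-green 72h replicate 3 stands apart in both panels, at 13250 and 355.1 CPM.

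Without 72h replicate 3, edgeR again called 0 genes, and 807 had an unadjusted p under 0.05, 436 higher (4.44% of 9826 tested) and 371 lower (3.78%). The differences in C1qa (1.06), Cebpb (-0.59), Dusp1 (-0.86), Ccl4 (-1.38) and Cysltr1 (-1.53) kept their direction and were of like size.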

How the data were processed

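RNA of sorted CD11b+ cells was sequenced in 4 Kaede-green libraries at each time and, in the same fit, 4 Kaede-red ones at each. The labels do not say whether same-numbered Kaede-green and Kaede-red libraries came from one tumour. They were treated as unpaired. The deposited values were raw counts per gene, 1 file per library, which the authors made with Trim Galore, HISAT2 to mm10 and featureCounts. The strand setting, the annotation and tool versions are not given in the sources used here. Libraries came from 5 ng of total RNA by a stranded pico kit, and Rn45s made up most counts. The members, gene lists and genes to be named were chosen with earlier results of these data known.

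Counts of 16 libraries were fitted together in edgeR 4.0.16 (R 4.3.3) with 4 group means, factors from the trimmed mean of M values, filterByExpr (9642 of 24421 genes kept) and the quasi-likelihood test. Contrasts were Kaede-green 72h against 24h, the same in Kaede-red, and their difference, each with Benjamini-Hochberg adjustment at 0.05. CPM used all counts, and 1 read was 0.243 to 0.557 CPM. A prior count of 2 entered log2 CPM, while fitted fold changes kept edgeR's default prior count. Each p-value measures the spread between these tumours. Replicate numbers are shared between the times, but the times are different mice. Single values were compared by exact permutation tests in SciPy 1.17.1. The fit was tested on simulated data. Alternatives were DESeq2 1.42.0, limma-voom 3.58.1, other scalings and filters, an Rn45s covariate, thinning and leaving out each library. Genes named by rule were 12 named by the study for this experiment, the 10 rises and 10 falls with the smallest unadjusted p among genes with a mean of at least 20 counts and groups that did not overlap, up to 3 members of each list by unadjusted p with up to 2 best known members, the genes called by DESeq2, and genes with an excess in a single library (at least 30 counts and 10 times the next Kaede-green CPM). Other list members named were chosen after their values were seen. Positions are from GENCODE M21 on GRCm38, promoters from RefSeq on GRCm38.p6. Results for some genes are not reported here.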

Additional observations from a re-analysis of the deposited data

Results flagged for a closer look

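In 13 of 166 groups of 4 libraries (7.831%) the highest or the lowest value stood far from the others by Dixon's test. Independent values from a normal distribution would give about 1 in 20, but that level does not apply here. Hprt and the genes with an excess were included for a single high library, and many other genes were picked by their p. Kaede-green 72h replicate 3 was far above its group in Hprt at 13250 CPM and in the sum of the other genes with an excess at 355.1 CPM, and far below it in Tap2 at 15.8 CPM. Kaede-green 72h replicate 4 was far above in the macrophage marker Adgre1 at 21.0 CPM, the class II genes H2-Aa at 121.6 CPM and Cd74 at 267.1 CPM and Snora62 at 96.72 CPM, and far below in Tgfbr1 at 11.93 CPM. Kaede-green 72h replicate 1 was far below in Ms4a7 at 17.49 CPM, and stood apart in Hist1h3b at 9.108 CPM. At 24h, replicate 4 was far below in the chemokine gene Ccl6 at 111.4 CPM and in Ccr2 at 106.9 CPM, and replicate 1 far above in Hprt at 141.5 CPM.

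For 7 of the 80 genes named by rule the change from 24h to 72h differed between the colours by edgeR's interaction term with an adjusted p under 0.05. Over all tested genes the share was 0.767%, and many of the 80 were picked by their p in the Kaede-green contrast. The Kaede-red minus Kaede-green difference in log2 fold change was 1.98 for Vcan and 1.162 for Zfp36. It was -1.281 for Cd63, -1.675 for Ms4a7, -1.924 for Snora7a, -2.423 for Riok2 and -6.152 for Hprt, the last resting on 72h replicate 3.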

How the results depend on the processing

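Against 0 genes called with edgeR, DESeq2 called 13, scaling by library size alone 36 and no filter on low counts 37 (29 higher and 8 lower, 11 of them genes with a single-library excess). Leaving out 1 library gave 0 to 2 calls (Hprt without 72h replicate 1, 2 or 4, and Cysltr1 without 72h replicate 4), and the other alternatives 0. Genes with an unadjusted p under 0.05 numbered 835 in the main analysis, 1742 with library size alone (99.77% higher, against 58.8%), 1547 without a filter (67.55% higher), 265 with at least 10 counts in every Kaede-green library (47.92%), 288 from the 8 Kaede-green libraries alone (44.79%), 293 higher and 301 lower with limma-voom, and 807 to 1067 with 1 library left out (48.45% higher without 24h replicate 4). Non-overlapping genes numbered 288, then 766 with library size alone, 95 with at least 10 counts, and 527 to 790 with 1 library left out, where 3 against 4 libraries overlap less often by construction. DESeq2 gave 341 genes for the difference between the colours against 74, and an excess of at least 5 times gave 41 genes against 27. Same-numbered libraries did not deviate together (correlations -0.041 to 0.018), no library correlated best with its own number, and the replicate block gave 0 calls, with 454 genes higher and 330 lower at an unadjusted p under 0.05.

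With library size alone, where the median of all genes was 0.74, the log2 fold changes that turned were Ndufa9 0.032, Btg2 0.037, Vcan 0.048, Mrc1 0.050, 9930111J21Rik1 0.062, Rps15 0.093, Plac8 0.096, Cox8a 0.096, Prdx1 0.10, Nr4a1 0.11, Hist1h3b 0.12, Cmpk2 0.12, Cebpb 0.12, Ndufv2 0.13, Zfp36 0.13, Rps20 0.16, Prdx6 0.16, Ifi47 0.18, Cx3cr1 0.23, Il1b 0.26, Fcer1g 0.27, Il6 0.28, Rpl10 0.28, Pgk1 0.29, Ccr1 0.30, Cxcl10 0.30, Ly6c2 0.32, Fos 0.42, Ccr2 0.47, Tgfb1 0.47, Tnf 0.59 and Mki67 0.71. With the Rn45s share as a covariate they were C1qc -0.033, Jun -0.072, H2-Aa -0.38, Cd74 -0.43, Il6 0.071 and Mki67 0.22. H2-Aa turned to -0.0050 with DESeq2, -0.0011 without Rn45s and -0.016 with limma-voom, Cd74 to -0.0038 with limma-voom, and Mki67 to 0.020 with at least 10 counts, 0.061 with limma-voom and 0.048 with the replicate block. With 1 library left out, the gene values that crossed 0 ranged as follows, C1qc -0.12 to 0.40, Cd74 -0.38 to 0.45, H2-Aa -0.37 to 0.37, Hprt -1.14 to 6.77, Jun -0.12 to 0.19, Mki67 -0.19 to 0.12, Tgfb1 -0.54 to 0.021 and Tnf -0.25 to 0.017. List medians that crossed 0 were small nucleolar RNAs -0.12 to 0.94, macrophage identity -0.051 to 0.28, MHC class I -0.060 to 0.20, MHC class II -0.0004 to 0.42, Fc receptors -0.095 to 0.086, macrophage transcription factors -0.17 to 0.034, matrix proteases -0.12 to 0.0022 and histones -0.31 to 0.031. The cause of these turns was not tested. Low counts set the limits: 41.79% of tested genes had a mean under 10 reads, and intervals cover these tumours only.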
